A study of Mus musculus with 26 samples.

Results

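The insulin-like growth factor (IGF) genes were followed through chemical reprogramming, a treatment that makes mouse fibroblasts pluripotent by small molecules alone. The family was taken as 10 of the 16718 genes in the deposited expression table, by name: the ligands Igf1 and Igf2, the receptor Igf1r and the binding proteins Igfbp1 to Igfbp7. It was picked out because Igf1 and Igfbp1 stood high in opposite courses, so the levels of Igf1 and Igfbp1 are given as a description with no test, and the other 8 genes were tested. RNA was measured by sequencing in 26 libraries in 5 groups. The course that left out BrdU, the thymidine analogue bromodeoxyuridine, was sampled with 1 library a day on days 6, 12, 18, 22, 30, 36 and 40. The course that left out Chir, which inhibits the kinase GSK3, was sampled in the same way on days 6, 12, 18, 22 and 30. The full course, with all the chemicals, has a library for each of the same 7 days, 6 to 40. CiPSC, the chemically induced pluripotent stem cells, had 6 libraries, and MEF, the mouse embryonic fibroblasts at day 0, had 1 library. The labels give no strain, sex or age, do not list the other chemicals of the courses, and do not say which libraries came from separate cultures.

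The 2 ligands signal through the receptor tyrosine kinase IGF1R, which activates the PI3K and AKT branch and promotes growth and survival. The binding proteins hold the ligands outside the cell, lengthen their life and mostly limit their access to the receptor, and proteases such as PAPP-A set the ligand free again. IGFBP7 binds IGFs only weakly. In adult mammals most circulating IGF1 is made by the liver, while many mesenchymal cells make it locally. Igf2 is a fetal growth factor whose gene is imprinted and read from the paternal copy, and it shares its locus with H19, a non-coding RNA read from the maternal copy.

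The values are treated as scores: whole numbers that appear to have been set to the same distribution in every library. This is inferred from their sum, median and maximum, because the normalization is not given. The sum lay between 4143561 and 4162600 and the median between 76 and 77 in every library, so the sequencing depth behind a value is unknown. The highest score was 21988 in every library, held there by exactly 10 genes, and a gene at this ceiling cannot show a further rise. Scores are compared within a gene, not between genes, because they are not per length. Log2 differences are of the score + 1, and errors on them are moderated standard errors from limma. With 1 library per course and day, the days of a course were the only repeats, successive days are not independent, and the p-values over days may be too small.

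The promoters of Igfbp1 and Igf1 are shown because these genes gave the pattern the family was picked for. Each is 250 bases before to 50 bases after the RefSeq start (GRCm38.p6), on the plus strand. Igfbp1 lies at chr11:7197537-7197836 and Igf1 at chr10:87860861-87861160. Capitals mark a match to 1 of the motifs searched on both strands. These were TATAAA (bound by the general transcription machinery), CAAAACA (the core of the insulin response element known in Igfbp1), GTTAAT (the start of the HNF1 site), AGATAA (bound by GATA factors) and TGACGTCA (the cAMP response element).
Igfbp1: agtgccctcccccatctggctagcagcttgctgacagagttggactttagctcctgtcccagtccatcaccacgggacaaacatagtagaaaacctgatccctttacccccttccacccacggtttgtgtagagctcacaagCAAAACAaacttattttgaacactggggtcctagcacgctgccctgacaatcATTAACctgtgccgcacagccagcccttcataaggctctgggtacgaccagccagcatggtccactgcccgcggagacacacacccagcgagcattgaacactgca
Igf1: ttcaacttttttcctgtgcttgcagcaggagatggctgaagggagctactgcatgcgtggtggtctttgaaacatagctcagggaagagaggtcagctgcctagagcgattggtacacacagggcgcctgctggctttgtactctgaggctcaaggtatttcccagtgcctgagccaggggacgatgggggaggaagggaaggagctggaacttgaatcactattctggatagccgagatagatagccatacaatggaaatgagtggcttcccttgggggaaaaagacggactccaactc

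The Igfbp1 window held CAAAACA with its first base 108 bases before the start, and GTTAAT on the other strand (printed ATTAAC) 56 bases before the start. Of 32851 mouse promoters of this length, 6.28% held CAAAACA and 7.1% held GTTAAT, against 13.6% for TATAAA, 11.2% for AGATAA and 1.79% for TGACGTCA. No match to the 5 motifs was found in the Igf1 window. That window covers 1 start only. In GENCODE M21 the Igf1 gene begins further upstream, at chr10:87858265, and no window there was searched. Of the 14 windows listed for the 10 genes, those of Igfbp4 and Igfbp6 each held 1 TATAAA, and the others, apart from Igfbp1, held no match. A match describes the letters only.

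Igf1, the growth factor of mesenchymal cells and liver, was high in the course without BrdU and in no other group. Without BrdU its score was 3101 on day 6, 4980 on day 12, 3854 on day 18, 2286 on day 22, 4516 on day 30, 2917 on day 36 and 3101 on day 40. The course without Chir had 295, 105, 67, 66 and 118 on days 6, 12, 18, 22 and 30. The full course had 582, 502, 93, 42, 110, 116 and 70 on the 7 days. Every day without BrdU lay above every day of both other courses, while the courses without Chir and with all chemicals overlapped. The ratio of the course without BrdU to the full course was 5.33 on day 6 and 54.4 on day 22, and the mean log2 difference was 4.61 ± 0.39 over the 7 days. CiPSC had 0, 16, 12, 1, 0 and 1, and MEF had 246. The order of group medians was therefore 3101 without BrdU, 246 in MEF, 110 in the full course, 105 without Chir and 1 in CiPSC, of which only the first and last groups were clear of the others' ranges. In bulk RNA, fewer cells of a type and less RNA per cell cannot be told apart. The summed score of 10 fibroblast markers lay between 38333 and 81222 without BrdU and between 8414 and 33419 without Chir. It was between 10472 and 57819 in the full course, between 114 and 516 in CiPSC (1 marker at 0 throughout) and 81824 in MEF. Such a sum is led by its highest-scoring genes. Col1a1, Col1a2 and Col3a1 were at the ceiling of 21988 in MEF and on days 30, 36 and 40 without BrdU. On those days Thy1 without BrdU was 28, 14 and 24, against 176, 269 and 255 in the full course and 2167 in MEF. Without BrdU, Pdgfra was also below the full course then, and the other markers were above it. Of these 10 markers, 6 were higher without BrdU than in the full course and 0 were lower (limma), where 21.1% of all genes were higher and 21.5% lower. The part of these markers in the Igf1 difference was not tested.

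Igfbp1, a binding protein that liver and decidua are known to secrete, had its high scores in the full course, from day 30 on. Without BrdU it was 0 on day 6, 8 on day 12, 2 on day 18, 3 on days 22 and 30, 2 on day 36 and 0 on day 40. It was listed at 0 on all 5 days without Chir, in MEF and in all 6 CiPSC libraries. In the full course it was 0 on day 6, 4 on day 12, 82 on day 18, 167 on day 22, 4962 on day 30, 2277 on day 36 and 3630 on day 40. The full course was thus alone in holding a score above 8, first on day 18, and its largest step lay between days 22 and 30. The mean log2 difference between the course without BrdU and the full course was -5.86 ± 1.54, an average over days that ran from 0.85 on day 12 to -11.83 on day 40. The summed score of 10 extraembryonic endoderm markers lay between 382 and 964 without BrdU and between 709 and 861 without Chir. In the full course it lay between 650 and 11673 and was highest on day 22. There Gata4, Gata6, Sox17, Foxa2, Sox7 and Apoa1 were each highest on day 22. Hnf4a, Afp and Dab2 were highest on day 36 and Ttr on day 30, the day Igfbp1 was highest. All 10 of these endoderm markers were lower without BrdU than in the full course (limma). Of all genes, 21.5% were lower and 21.1% higher in that comparison. Of the 6 hepatocyte markers in the table, 2 were higher (Trf, Alb) and 4 lower without BrdU (limma). Among the lower, Ttr and Apoa1 are also on the endoderm list. The hepatocyte sum lay between 72 and 5664 without BrdU and between 136 and 1085 in the full course. Its highest value, on day 22 without BrdU, was mostly Trf at 4974, with Alb at 653. The part of these markers in the Igfbp1 difference was not tested.

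**Figure D1:**
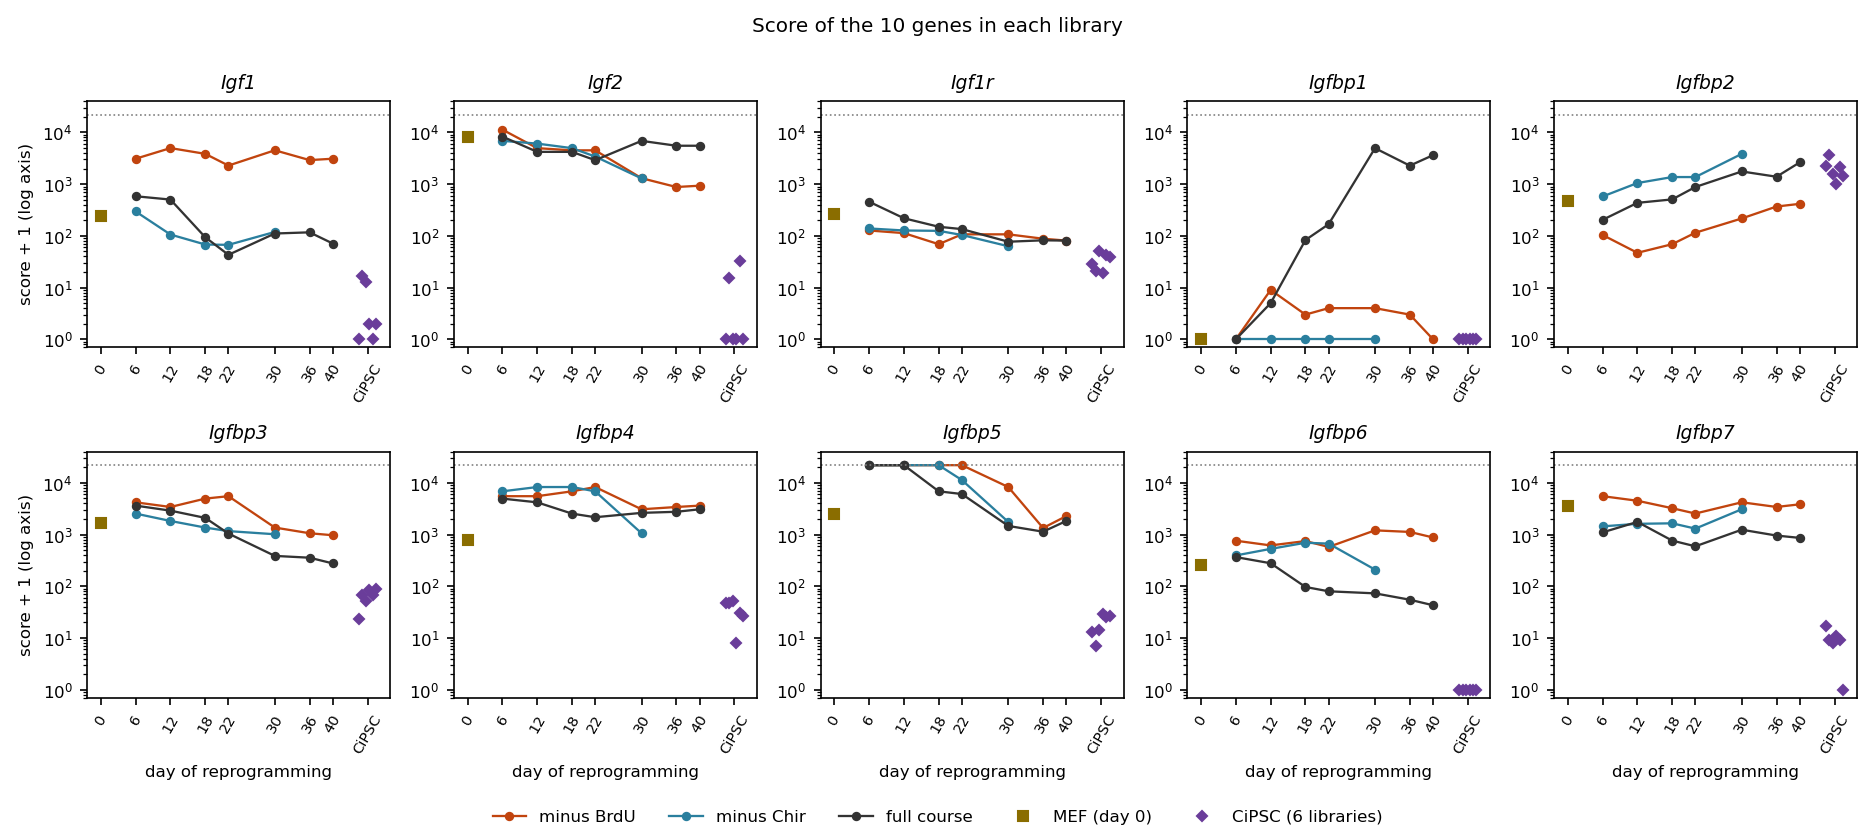
Score + 1 of the 10 genes (log axis) against the day of reprogramming in the courses without BrdU, without Chir and with all chemicals, with MEF at day 0 and the 6 CiPSC libraries at the right; each point is 1 library and the dotted line is the ceiling of 21988. Igf1 stays between 2286 and 4980 without BrdU and Igfbp1 climbs to 4962 in the full course.

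Igf2, the fetal growth factor, was high at first in every course and then parted. Without BrdU its score was 11331, 4966, 4506 and 4506 on days 6, 12, 18 and 22, and 1302, 879 and 932 on days 30, 36 and 40. Without Chir the scores were 6868, 6084, 4966 and 3420 on days 6, 12, 18 and 22, and 1289 on day 30. Those of the full course were 8314, 4208, 4208 and 2907 on days 6, 12, 18 and 22, and 6868, 5529 and 5529 on days 30, 36 and 40. Up to day 22 the 3 courses overlapped, and on day 30 both courses that lacked a chemical lay below the full course, as the course without BrdU did on days 36 and 40. The difference between the course without BrdU and the full course averaged -2.54 on log2 scale on the 3 late days (SD 0.13) and 0.35 on the 4 early days (SD 0.23). The change in that difference, late minus early, was -2.89 ± 0.23 (limma, adjusted p = 0.000677). Averaged over all 7 days, the difference of -0.89 ± 0.49 was not called (limma, adjusted p = 0.168). In the course without BrdU, Igf2 was also the only 1 of the 8 tested members with a called trend over MEF and the 7 days, at -0.96 ± 0.12 log2 units per 10 days (limma, adjusted p = 0.0179). That trend was not called without day 6 (adjusted p = 0.0718), day 36 (0.0847) or day 40 (0.0924), in limma fits of the same kind. Of all genes, 0.875% had a called trend in that course, 0.315% rising and 0.560% falling.

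H19, which lies on the same strand as Igf2 with 72622 bases and 0 protein-coding genes between them, was read at the same time. Without BrdU it was at the ceiling of 21988 on days 6 and 12, at 11331 on days 18 and 22, and at 1684, 1256 and 1048 on days 30, 36 and 40. Without Chir H19 was at the ceiling on days 6 and 12, at 8314 on days 18 and 22 and at 1614 on day 30. The full course had 21988 on days 6, 18, 30, 36 and 40 and 11331 on days 12 and 22. Like Igf2, H19 lay below the full course on day 30 in both courses that lacked a chemical. Its late minus early change in the effect of leaving out BrdU was -4.07 ± 0.46 (limma, adjusted p = 0.00212), a size that is not exact because both courses hold values at the ceiling. Over the 20 libraries of MEF and the courses the 2 genes had a Pearson correlation of 0.93 on the log2 scale, a description over points that share courses and days and, for H19, the ceiling. CiPSC had 0, 14, 0, 0, 32 and 0 for Igf2 and 21, 110, 3, 19, 39 and 55 for H19, and MEF had 8314 for Igf2 and 11331 for H19. Igf2 (7:142650766-142666816 in mm10, GENCODE M21) overlaps the antisense gene Igf2os. Reads of such a pair cannot be told apart where strand was not used in counting, which the sources used here do not give. Igf2 also overlaps Gm49394, listed as protein-coding, and the microRNA gene Mir483, both on its own strand. Strand would not separate their reads from those of Igf2.

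**Figure D2:**
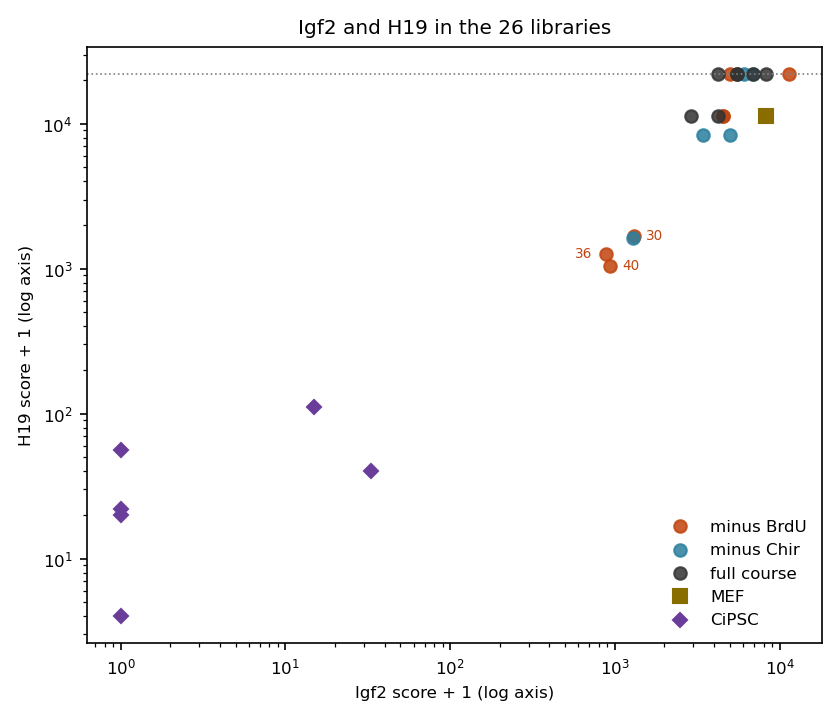
H19 against Igf2, both as score + 1 on log axes, with 1 point per library coloured by group; the numbers mark days 30, 36 and 40 of the course without BrdU and the dotted line is the ceiling of 21988. These 3 points and day 30 without Chir (Igf2 1289, H19 1614) lie apart from the other course libraries, and CiPSC lies at the lower left.

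Igf1r, the receptor for both ligands, was lower in CiPSC than in MEF and drifted down in the full course. Its score without BrdU was 126, 112, 68, 106, 106, 87 and 80 on the 7 days. The course without Chir had 138, 126, 124, 103 and 62 on its 5 days. Values in the full course were 456, 218, 149, 134, 76, 81 and 80. CiPSC had between 18 and 50, with a median of 33, and MEF had 260. The full course was the highest on days 6 to 22 and all 3 courses lay between 62 and 106 on day 30. The slope in the full course was -0.59 ± 0.10 log2 units per 10 days (limma, adjusted p = 0.00664). Neither course comparison of all shared days was called: the difference was -0.53 ± 0.27 without BrdU (95% interval -1.13 to 0.08, adjusted p = 0.141) and -0.69 ± 0.24 without Chir (-1.26 to -0.12, adjusted p = 0.0721), both by limma.

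Igfbp2, a binding protein of embryonic tissues and liver, was the 1 tested member lower without BrdU, and it was the 1 that both rose in the full course and stayed high in CiPSC. Without BrdU its score was 103, 46, 68, 114, 216, 368 and 415 on the 7 days. Scores without Chir were 576, 1050, 1370, 1370 and 3850 on 5 days. The full course had 203, 434, 506, 880, 1758, 1390 and 2634. On each of the 5 days that all 3 courses share, the order was the course without Chir, then the full course, then the course without BrdU. The difference from the full course was -2.51 ± 0.26 without BrdU (limma, adjusted p = 0.000495; lower on 7 of 7 days). Without Chir the difference was 1.20 ± 0.16 (limma, adjusted p = 0.00982; higher on 5 of 5 days), a call not made without day 18 (adjusted p = 0.0607) or without day as a block (adjusted p = 0.152). Between the courses without Chir and without BrdU, whose ranges did not overlap, it was 3.80 ± 0.29 (limma, adjusted p = 0.000323). The slope was 0.78 ± 0.13 per 10 days in the full course (limma, adjusted p = 0.00634), and 0.96 ± 0.11 without Chir (limma, adjusted p = 0.0493), of which the second was called in none of the 5 fits that left out a day, nor without MEF (adjusted p = 0.0536).

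Igfbp3, the main carrier of IGFs in blood, was higher without BrdU than in the full course. It stood at 4203, 3416, 4962, 5524, 1366, 1060 and 970 without BrdU, against 3630, 2902, 2102, 1046, 386, 356 and 276 in the full course. The course without Chir had 2545, 1832, 1365, 1166 and 1014. Without BrdU the score was above the full course on all 7 days, by little on days 6 and 12. The mean log2 difference was 1.33 ± 0.27 (limma, adjusted p = 0.00492); it was not called over days 6 to 30 alone (adjusted p = 0.0529) or without day as a block (adjusted p = 0.118). Its slope in the full course was -0.91 ± 0.16 per 10 days (limma, adjusted p = 0.00770). Without Chir minus without BrdU, the difference was -1.23 ± 0.28 (limma, adjusted p = 0.0155), not called without day 18 (adjusted p = 0.0662). Igfbp3 lies next to Igfbp1 on chromosome 11 (7206086-7213923 and 7197782-7202546, mm10), the pair facing each other with 3539 bases and 0 protein-coding genes between them. In the full course these neighbours had opposite patterns, with Igfbp1 at 0 on day 6 and 3630 on day 40, and Igfbp3 at 3630 and 276.

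Igfbp6, a binding protein that prefers IGF2, parted the course without BrdU from the full course on every day. Without BrdU its score was 760, 616, 748, 576, 1206, 1124 and 878. The course without Chir had 394, 528, 694, 668 and 209. The full course had 366, 278, 96, 79, 72, 54 and 42. The lowest value without BrdU was above the highest of the full course, and the ratio was 2.08 on day 6 and 20.9 on day 40. The log2 difference was 2.96 ± 0.44 (limma, adjusted p = 0.00144), with a mean of 4.25 on the late days and 2.0 on the early days. Late minus early it was 2.25 ± 0.49 (limma, adjusted p = 0.0209), not called without day 12 (adjusted p = 0.0546), day 36 (0.0804) or day 40 (0.0865). Without Chir the difference was 1.69 ± 0.43 (limma, adjusted p = 0.0295), not called without day 18 (adjusted p = 0.105), day 22 (0.103) or day 30 (0.0687). The full-course slope was -0.77 ± 0.11 per 10 days (limma, adjusted p = 0.00374).

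Igfbp7, the weak IGF binder deposited in the matrix of vessels and connective tissue, was higher without BrdU than in the full course on every day. Scores without BrdU were 5530, 4508, 3234, 2550, 4210, 3420 and 3846, against 1103, 1756, 764, 592, 1241, 956 and 862 in the full course. Without Chir they were 1441, 1614, 1650, 1303 and 3088. MEF had 3633, inside the range without BrdU and above every day of the full course. The groups without BrdU and with all chemicals did not overlap. Their log2 difference was 1.95 ± 0.14 (limma, adjusted p = 0.000193) and lay between 1.36 and 2.32 on single days. Late minus early it was -0.05 ± 0.27 (95% interval -0.65 to 0.55; limma, adjusted p = 0.922). The course without Chir was lower than that without BrdU, by -1.16 ± 0.22 (limma, adjusted p = 0.00772). Its difference from the full course, 0.76 ± 0.24, just missed the threshold (limma, adjusted p = 0.0502), and it was called without day 12 (adjusted p = 0.0308), with a pseudocount of 5 (0.0494) and in 1 fit over all 19 course libraries (0.00838). Igfbp7 overlaps Polr2b on the other strand, and Igf1 overlaps the antisense gene Igf1os, with the same limit as for Igf2os.

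Igfbp4 and Igfbp5, binding proteins of fibroblasts, bone and muscle, were not called between courses. Igfbp4 was 5522, 5524, 6861, 8304, 3082, 3414 and 3628 without BrdU, 6861, 8304, 8304, 6861 and 1058 without Chir, and 4959, 4201, 2543, 2164, 2628, 2758 and 3082 in the full course. Igfbp5 was at the ceiling on days 6 to 22 without BrdU and 8307, 1340 and 2277 on days 30, 36 and 40; at the ceiling on days 6 to 18 without Chir, then 11327 and 1753; and at the ceiling on days 6 and 12 in the full course, then 6863, 6080, 1468, 1136 and 1832. MEF had 798 for Igfbp4 and 2545 for Igfbp5, below every course library on day 6. Without Chir, Igfbp4 was 0.70 ± 0.44 above the full course (limma, adjusted p = 0.253), which was called at 1.21 when day 30 was left out (adjusted p = 0.0409). On day 22 both genes stood lower in the full course than in either other course. Without BrdU the difference was 0.67 ± 0.25 for Igfbp4 (limma, adjusted p = 0.0530) and 0.94 ± 0.35 for Igfbp5 (limma, adjusted p = 0.0532); both were called when day 6 was left out (adjusted p = 0.0448 and 0.0350 by limma), and Igfbp5 also without day 12 (adjusted p = 0.0434) and in 1 fit over all 19 course libraries (adjusted p = 0.0304). Igfbp5 was at the ceiling in 9 libraries in all, where its score is a lower limit, so its differences are not exact. Its slope in the full course, -0.76 ± 0.31 per 10 days (limma, adjusted p = 0.122), was -1.35 and called when MEF was left out (adjusted p = 0.00373). Igfbp5 and Igfbp2 face each other on chromosome 1 (72857932-72874884 and 72824503-72852474, mm10), 5457 bases apart with 0 protein-coding genes between them, and in the full course Igfbp5 was at the ceiling on day 12 and at 1832 on day 40, where Igfbp2 had 434 and 2634.

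**Figure D3:**
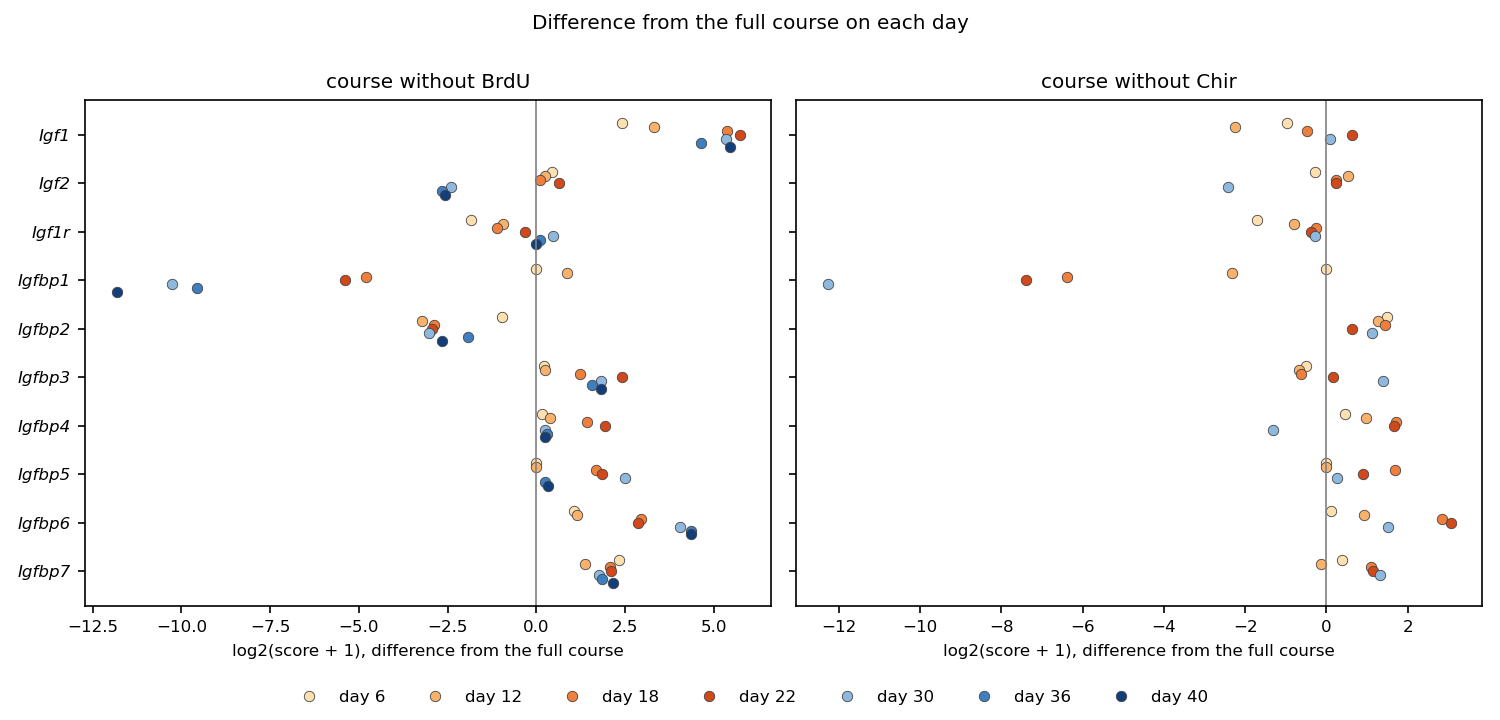
Log2 difference of the score + 1 from the full course for each of the 10 genes on each day, for the course without BrdU (left) and the course without Chir (right); each point is 1 pair of libraries and pale to dark colours run from early to late days. Igf2 splits into days 6 to 22, between 0.10 and 0.63, and days 30 to 40, between -2.65 and -2.40, without BrdU, and Igfbp7 stays between 1.36 and 2.32.

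Counted together against the full course, 3 of the 8 tested members were higher without BrdU (Igfbp3, Igfbp6, Igfbp7), 1 was lower (Igfbp2) and 4 were not called. Of all 16308 genes tested, 42.6% were called in that comparison, 21.1% higher and 21.5% lower, so the share of members called is near the background. Among the 8 tested members, Igfbp6 and Igfbp7 had no overlap between the 2 courses, where 9.17% of all genes had such ranges. Igf1 had no overlap either, but it was chosen for its pattern and is not counted. Without Chir, 2 of 8 were higher (Igfbp2, Igfbp6) and 0 lower, with 26.5% of all genes called, 13.5% higher and 12.9% lower. That background rests on single days: 4298 genes were called with all 5 days, 25 without day 18, 226 without day 22 and 2143 without day 30. None of the 8 tested members had ranges clear of the full course without Chir, against 16.6% of all genes. In the course without Chir set against that without BrdU, 1 member was higher (Igfbp2) and 2 lower (Igfbp3, Igfbp7). Of all genes, 32.2% were called there, 16.9% higher and 15.2% lower. Among the tested members only Igfbp2 had ranges that did not overlap, as did 19.3% of all genes. Igf1, chosen for its pattern, is again not counted. These 3 comparisons share libraries. For the change of the BrdU effect between early and late days, 2 members were higher (Igf1r, at 1.26 ± 0.35 and not called in 6 of the 7 fits that left out a day, and Igfbp6) and 1 was lower (Igf2), with 13.6% of all genes called, 7.02% higher and 6.58% lower. In the full course, 1 member rose (Igfbp2) and 3 fell (Igf1r, Igfbp3, Igfbp6), against 16.7% of all genes with a called slope, 9.31% rising and 7.42% falling. Without Chir the called slope of Igfbp2 stood against 0.200% of all genes, 0.100% rising and 0.100% falling.

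The remaining members were not called in these comparisons. Without Chir against the full course, the log2 difference was -0.34 ± 0.43 for Igf2, -0.05 ± 0.31 for Igfbp3 and 0.57 ± 0.32 for Igfbp5 (limma, adjusted p between 0.206 and 0.914). Without Chir against without BrdU, it was -0.14 ± 0.19 for Igf2, 0.07 ± 0.23 for Igf1r, -0.13 ± 0.31 for Igfbp4, -0.64 ± 0.38 for Igfbp5 and -0.72 ± 0.37 for Igfbp6 (limma, adjusted p between 0.179 and 0.836). Late minus early, the effect of leaving out BrdU was -0.03 ± 0.53 for Igfbp2, 0.71 ± 0.49 for Igfbp3, -0.72 ± 0.43 for Igfbp4 and 0.13 ± 0.70 for Igfbp5 (limma, adjusted p of 0.294 or more). The full-course slope per 10 days was -0.10 ± 0.14 for Igf2, 0.15 ± 0.18 for Igfbp4 and -0.35 ± 0.16 for Igfbp7 (limma, adjusted p between 0.162 and 0.645). Slopes without BrdU were -0.29 ± 0.11 for Igf1r, 0.31 ± 0.28 for Igfbp2, -0.40 ± 0.21 for Igfbp3, 0.19 ± 0.25 for Igfbp4, -0.53 ± 0.38 for Igfbp5, 0.37 ± 0.11 for Igfbp6 and -0.07 ± 0.10 for Igfbp7 (limma, adjusted p between 0.178 and 0.794). In the course without Chir the slope was -0.83 ± 0.16 for Igf2 (95% interval -1.22 to -0.44, adjusted p = 0.0845) and -0.57 ± 0.11 for Igf1r (-0.83 to -0.31, adjusted p = 0.0829), by limma. The other slopes of that course were -0.35 ± 0.12 for Igfbp3, 0.07 ± 0.57 for Igfbp4, -0.29 ± 0.60 for Igfbp5, 0.03 ± 0.26 for Igfbp6 and -0.06 ± 0.23 for Igfbp7 (limma, adjusted p between 0.177 and 0.953). As a description, the Igf1 difference was -0.59 ± 0.39 without Chir against the full course, -5.02 ± 0.33 without Chir against without BrdU, -6.32 ± 1.78 in CiPSC against MEF and -4.52 ± 1.78 in CiPSC against day 40. Its late minus early difference was 0.94 ± 0.75, and that of Igfbp1 was -8.22 ± 1.54. The Igf1 slope was -0.63 ± 0.24 in the full course, 0.50 ± 0.29 without BrdU and -0.59 ± 0.24 without Chir, and that of Igfbp1 was 3.48 ± 0.33 in the full course and 0.11 ± 0.32 without BrdU.

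Set against MEF, most of the family was lower in CiPSC, and Igfbp2 was higher. Igfbp2 was 2218, 3643, 1557, 997, 2170 and 1449 in CiPSC, against 464 in MEF and 2634 on day 40 of the full course. Igfbp6 was listed at 0 in all 6 CiPSC libraries, against 260 in MEF and 42 on day 40. Igfbp3 was 22, 66, 51, 83, 66 and 86 in CiPSC, against 1648 in MEF and 276 on day 40. CiPSC scores of Igfbp4 (7 to 51), Igfbp5 (6 to 28) and Igfbp7 (0 to 16) were all far under those of MEF and of every course library. Of the 7 members tested against MEF, Igfbp2 was higher and the other 6 were lower, where 39.4% of all genes were called, 23.5% higher and 15.9% lower. Igfbp2 differed by 1.99 ± 0.63 (limma, adjusted p = 0.0478), a call lost when CiPSC 1 (adjusted p = 0.0856), CiPSC 3 (0.0772), CiPSC 5 (0.0783) or CiPSC 6 (0.0667) was left out. The differences were -11.53 ± 2.30 for Igf2, -3.05 ± 0.61 for Igf1r, -4.82 ± 0.71 for Igfbp3, -4.72 ± 1.01 for Igfbp4, -7.22 ± 0.83 for Igfbp5 and -9.01 ± 1.43 for Igfbp7, with limma adjusted p between 0.00110 and 0.0124. The spread in these tests came from CiPSC alone, and the lone MEF or day 40 library was assumed to vary like it. For genes at or near 0 in CiPSC, such as Igf2 and Igfbp7, the sizes depend on the 1 added to each score. They are not exact, here and against day 40.

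Relative to day 40 of the full course, 4 of 7 tested members were lower in CiPSC, 0 were higher and 3 were not called, with 25.6% of all genes called, 15.4% higher and 10.2% lower. Lower were Igf2 (-10.94 ± 2.29, adjusted p = 0.0184), Igfbp4 (-6.67 ± 1.01, adjusted p = 0.00617), Igfbp5 (-6.74 ± 0.83, adjusted p = 0.00301) and Igfbp7 (-6.94 ± 1.43, adjusted p = 0.0176), by limma. The difference for Igfbp2 was -0.51 ± 0.63 (95% interval -2.04 to 1.02; limma, adjusted p = 0.593). For Igf1r it was -1.36 ± 0.62 (limma, adjusted p = 0.163), and for Igfbp3 it was -2.25 ± 0.71 (limma, adjusted p = 0.0625), called when CiPSC 1 was left out (adjusted p = 0.0172). Igfbp1 was at 0 in all CiPSC libraries and at 3630 on day 40. The pluripotency marker sum lay between 28032 and 43599 in CiPSC, against 6053 on day 40 and 337 in MEF. The macrophage marker sum was 26 to 60 in CiPSC (6 of 8 markers at 0 throughout) and 79 to 448 in the courses, against 3978 in MEF. Its part in the MEF values was not tested.

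Around the 10 members, 42 genes of the IGF axis were listed and 37 were in the table; Ins1, Ins2, Insrr, Irs3 and Rps6kb1 were not analysed here. Without BrdU, 9 of 34 tested were higher, 13 lower and 12 not called, with a median log2 difference of -0.17 against 0.02 over all genes. Of all genes, 42.6% were called there, 21.1% higher and 21.5% lower. Of the genes that release or carry IGFs, 4 of 6 were higher: the proteases Adam12 (3.0 ± 0.60, adjusted p = 0.00455), Pappa2 (2.71 ± 0.48, adjusted p = 0.00284), Htra1 (1.54 ± 0.38, adjusted p = 0.0113) and Pappa (1.46 ± 0.41, adjusted p = 0.0185), by limma. Stc2, an inhibitor of PAPP-A, was lower (-1.67 ± 0.36; limma, adjusted p = 0.00626). Stc1, another inhibitor of PAPP-A, was not called (-0.04 ± 0.31, limma, adjusted p = 0.934). The course without BrdU thus had calls for the proteases and for Stc2, and none for Stc1. Pappa2 was 210, 837, 350, 438, 17, 10 and 20 without BrdU, against 70, 44, 22, 16, 4, 4 and 6 in the full course. Igfbpl1 was listed at 0 on every day without BrdU and lay between 0 and 17 in the full course. Igfals, the partner of Igfbp3 in the blood complex, was in the table and did not pass the filter on low values in the comparisons between courses.

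The genes that bind Igf2 mRNA were lower without BrdU. Igf2bp1 was 90, 58, 54, 77, 33, 24 and 22 without BrdU, against 246, 432, 564, 828, 740, 958 and 903 in the full course, a log2 difference of -3.73 ± 0.43 (limma, adjusted p = 0.000679). Igf2bp3 differed by -3.53 ± 0.36 (limma, adjusted p = 0.000472) and Igf2bp2 by -1.67 ± 0.19 (limma, adjusted p = 0.000646). In CiPSC Igf2bp1 was between 1718 and 2284, while Igf2 itself was between 0 and 32. Igf2bp1 was higher there than in MEF, by 3.79 ± 0.17 (limma, adjusted p = 1.32e-05).

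In the PI3K and AKT branch, 3 of 16 genes were higher without BrdU, 4 lower and 9 not called, a share near the 42.6% of all genes called. Pik3cb, a catalytic subunit of PI3K, was 22, 28, 34, 82, 38, 33 and 34 without BrdU, against 56, 179, 414, 498, 410, 541 and 412 in the full course (-3.01 ± 0.30; limma, adjusted p = 0.000430). Foxo4, a transcription factor that AKT holds out of the nucleus, differed by -3.06 ± 0.43 (limma, adjusted p = 0.00121). Akt1 and Akt2, kinases of the branch, were not called: Akt1 differed by 0.11 ± 0.09 (limma, adjusted p = 0.370) and Akt2 by 0.07 ± 0.11 (limma, adjusted p = 0.631). Among adaptors, Grb14, which blocks insulin receptor signalling, was higher (1.63 ± 0.39; limma, adjusted p = 0.0103), and Gab1 lower (-1.55 ± 0.17; limma, adjusted p = 0.000560). Insr (-0.42 ± 0.11) and Igf2r, which clears IGF2 (-0.60 ± 0.15), were lower by small amounts (limma, adjusted p = 0.0144 and 0.0102).

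Without Chir, 1 of 36 axis genes was higher than in the full course, 6 were lower and 29 were not called, with a median of -0.26 against 0.01 over all genes, of which 26.5% were called. Higher was Pappa2 (1.24 ± 0.37; limma, adjusted p = 0.0460). The 4 largest falls were Igf2bp1 (-2.03 ± 0.38, adjusted p = 0.0152), Pik3cb (-1.57 ± 0.42, adjusted p = 0.0329), Igf2bp2 (-1.48 ± 0.33, adjusted p = 0.0222) and Pappa (-1.32 ± 0.28, adjusted p = 0.0199), by limma. Set against the course without BrdU, that without Chir had 5 of 34 genes higher and 10 lower, where 32.2% of all genes were called. Pappa (-2.47 ± 0.44), Adam12 (-2.04 ± 0.53), Pappa2 (-2.01 ± 0.64) and the PI3K regulatory subunit Pik3r1 (-1.23 ± 0.14) were the furthest down there, and Stc2 (2.18 ± 0.41), Igf2bp3 (1.91 ± 0.40), Foxo4 (1.40 ± 0.33) and Pik3cb (1.13 ± 0.29) the furthest up, with limma adjusted p between 0.00109 and 0.0494. Late minus early, the effect of leaving out BrdU was higher for Adam12 (2.91 ± 0.75; limma, adjusted p = 0.0363), Htra1 (2.18 ± 0.26; limma, adjusted p = 0.00238) and Grb14 (2.0 ± 0.44; limma, adjusted p = 0.0220), and it was lower for Igf2bp1 (-2.23 ± 0.48; limma, adjusted p = 0.0196).

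Over the full course, 5 of 36 axis genes rose, 5 fell and 26 had no called slope, where 9.31% of all genes rose and 7.42% fell. Foxo4 (1.12 ± 0.17 per 10 days), Pik3cb (0.81 ± 0.17), Igf2bp1 (0.63 ± 0.10) and Gab1 (0.52 ± 0.11) rose the most, with limma adjusted p between 0.00396 and 0.0165. The largest falls were those of the proteases Adam12 (-1.38 ± 0.24), Pappa (-1.02 ± 0.12), Pappa2 (-0.84 ± 0.21) and Htra1 (-0.64 ± 0.16), with limma adjusted p between 0.00197 and 0.0283. Without BrdU, 1 of 34 had a called slope, Igf2bp1 (-0.63 ± 0.10; limma, adjusted p = 0.0321), and without Chir the lowest limma adjusted p of the 36 tested was 0.0570. In CiPSC, 4 of 36 axis genes were higher than in MEF and 13 lower, where 23.5% of all genes were higher and 15.9% lower. Higher were Igf2bp1, Gab1 (2.77 ± 0.32), Pik3cb (1.78 ± 0.26) and Foxo4 (1.74 ± 0.45), and the largest falls were those of H19 (-8.68 ± 1.61), Pappa (-8.61 ± 1.27), Adam12 (-7.18 ± 1.55) and Grb10 (-4.28 ± 0.28), an adaptor that restrains the receptor, with limma adjusted p between 1.32e-05 and 0.0252. Relative to day 40, 1 was higher in CiPSC, Igf2bp1 (1.21 ± 0.17; limma, adjusted p = 0.00491), and 11 were lower, with H19 (-9.64 ± 1.61), Pappa (-4.56 ± 1.26), Foxo4 (-2.75 ± 0.45) and Grb10 (-2.67 ± 0.28) the furthest down (limma, adjusted p between 0.00153 and 0.0426); of all genes, 15.4% were higher and 10.2% lower.

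**Figure D4:**
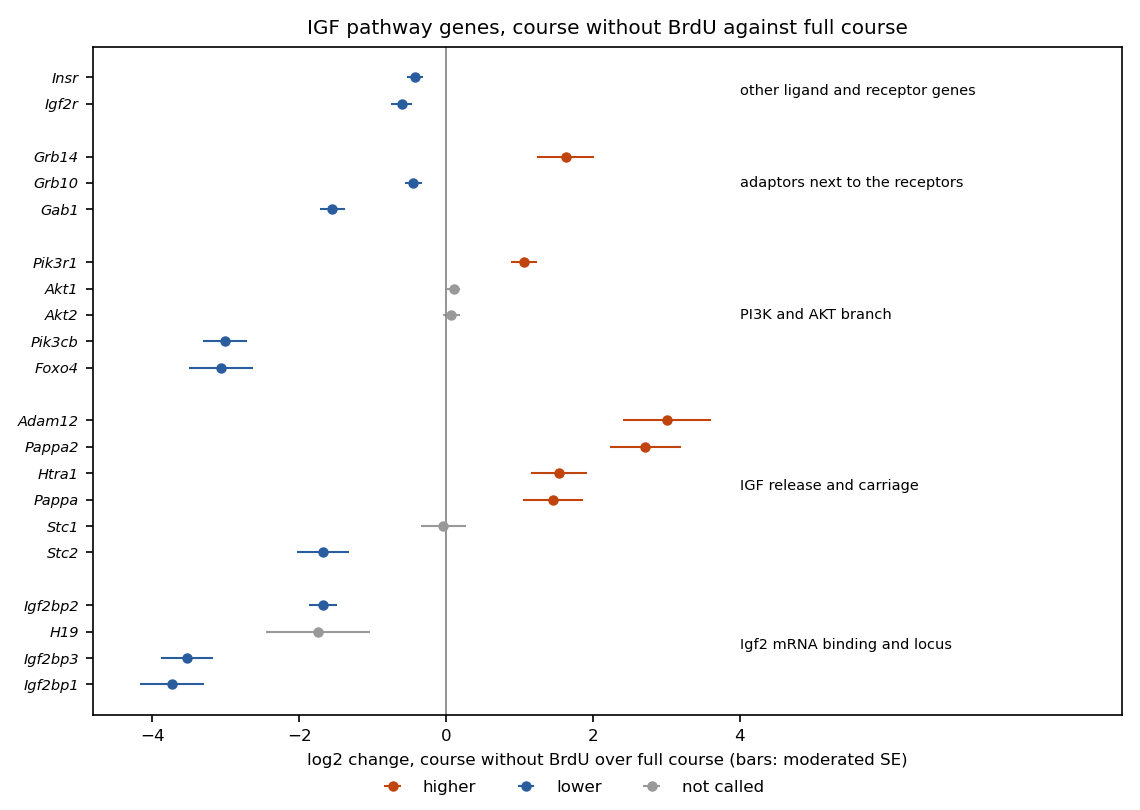
Log2 change of the score + 1 in the course without BrdU over the full course for tested genes of the IGF axis that are described by name, grouped by list and ordered within it; bars are moderated standard errors and colours give the call at an adjusted p under 0.05. The IGF-releasing proteases Adam12, Pappa2, Htra1 and Pappa lie to the right and the Igf2bp genes to the left.

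The genes whose pattern was most like that of Igf1 over the 20 libraries of MEF and the courses were Lum (Pearson r of log2 scores 0.97), Tpst1 (0.96), Antxr1 (0.95), Lacc1 (0.94) and Lpar1 (0.94). Lum, a proteoglycan of collagen fibrils, was 4518 on day 6 and 2430 on day 40 without BrdU, against 1171 and 234 in the full course. For Igfbp1 they were Slc2a1 (0.95), Tnk1 (0.95), Rdh13 (0.95), Kcng1 (0.94) and Ppip5k2 (0.94). Slc2a1, the glucose transporter GLUT1, was 793 on day 6 and 554 on day 40 without BrdU, against 878 and 6078 in the full course. Within the family, Igf1 had a correlation of 0.80 with Igfbp7 and of -0.85 with Igfbp2 over the same libraries. These are the highest of many correlations over points that share courses and days.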

How the data were processed

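Per the labels' protocols, TRIzol RNA went through TruSeq RNA library construction and NextSeq 500 sequencing. The tools named, per the submitters' processing notes, are bcl2fastq, Bowtie2 and RSEM, with the mm10 genome build; versions, annotation, strand use, normalization and filters are not given in the sources used here. The authors deposited 1 table of 16718 genes, whose values are treated here as a score, whole numbers that the authors set to a common distribution. CPM, the unit in the table's name, is contradicted by the values, since every library has nearly the same sum and exactly the same maximum. Depth is unknown, so no interval from counts is given. Between 10.4% and 14.2% of genes were listed at 0 in CiPSC libraries, and between 5.59% and 10.8% in the others. Any 2 CiPSC libraries had a correlation between 0.895 and 0.934 and at most 2.36% equal values among genes at 10 or more. No CiPSC library was thus a copy of another. Libraries from the same line or culture would also differ in value, so the independence of the 6 libraries was not tested.

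Groups and days were taken from the labels, which give no batch; a batch of CiPSC libraries and the CiPSC group cannot be told apart. Scores were analysed as log2(score + 1) by limma 3.58.1 in R 4.3.3 (eBayes with trend), for genes whose mean over a fit's libraries was 1 or more. Adjustment was by Benjamini-Hochberg over all genes tested, with a call under 0.05, two-sided. Comparisons between courses had day as a block. Deviations of same-day libraries from their course means had correlations of 0.207 to 0.363 for the courses without BrdU and with all chemicals, -0.057 to 0.411 for those without Chir and with all chemicals, and -0.099 to 0.426 for those without Chir and without BrdU. Trends used day as a number with MEF as day 0. Members and listed genes at 0 in every library of a course, in a comparison of courses, or of CiPSC got no fold and no call, while genes at 0 in the lone MEF or day 40 library were tested, and genes at 0 in every CiPSC library were left out of the CiPSC counts (398 against MEF, 357 against day 40). The fits were tested on simulated data with noise drawn independently for each library. That check cannot show whether p-values hold where successive days are not independent. Python 3.11.15 with pandas 2.3.3 was used for descriptions, and positions came from GENCODE M21.

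All 10 members are named in every comparison, with a value or as listed at 0. Genes of the axis are named as the up to 4 largest called rises and falls of a comparison, and pattern neighbours as the 5 highest correlations among genes reaching 100. Akt1, Akt2, Igf2r, Insr, Igfals, Igfbpl1, Pappa, Stc1, Stc2, Gab1, Igf2bp2 and H19 were named in addition, after their values were seen. Some genes of the axis are counted in their lists and not reported here by name. The members, lists and tests were chosen with earlier results of these data known. Alternatives were the pseudocount, the filter, the prior trend, the day block, other sets of libraries and leaving out each day or CiPSC library.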

Additional observations from a re-analysis of the deposited data

Results flagged for a closer look

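For 3 of the tested members the difference made by leaving out BrdU was not the same on the late days (30, 36 and 40) as on the early days (6 to 22), tested as an interaction term in limma over all genes. For Igf2 the late minus early difference was -2.89 ± 0.23 (limma, adjusted p = 0.000677), and the 3 late days all lay below the full course while the 4 early days lay above it. For Igfbp6 it was 2.25 ± 0.49 (limma, adjusted p = 0.0209), with the score above the full course on 7 of 7 days. For Igf1r it was 1.26 ± 0.35 (limma, adjusted p = 0.0468), with a mean of 0.19 on late days and -1.06 on early days; the call was lost in 6 of the 7 fits that left out a day. No CiPSC library stood far enough from the others to pass Dixon's test in any of the 8 members that had a score above 0 there.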

How the results depend on the processing

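Depth is unknown and no course has repeats within a day, which limits every comparison between courses. Leaving out 1 day or CiPSC library at a time gave 5366 to 7428 called genes without BrdU against the full course (all days 6946), 25 to 4994 without Chir against the full course (4298), 2772 to 4783 without Chir against without BrdU (5176), 713 to 2472 for the late minus early effect (2218), 1377 to 2551 for the full-course trend (2729), 0 to 173 for the trend without BrdU (139) and 0 to 142 for the trend without Chir (32). In the 2 CiPSC comparisons it gave 5397 to 6330 against MEF (6180) and 2954 to 4007 against day 40 (4024). Days 6 to 30 alone gave 3735 genes without BrdU, and 1 fit over the 19 course libraries gave 6895 without Chir. For the trend without BrdU, 85 genes were called with no filter and 1095 without MEF; for the trend without Chir, 17 with no filter, 0 with no intensity trend in limma and 113 without MEF.

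Directions turned only for members that were not called. In 1 fit over 19 libraries Igfbp3 without Chir was 0.023. Without MEF the slope of Igfbp4 was -0.19 in the full course, -0.28 without BrdU and -1.03 without Chir, where Igfbp6 was -0.29 and Igfbp7 0.36. With single days left out, values turned sign within these ranges: without Chir against the full course, Igfbp3 -0.41 to 0.10 and Igf2 -0.55 to 0.18; without Chir against without BrdU, Igf2 -0.25 to 0.0052, Igf1r -0.13 to 0.28 and Igfbp4 -0.31 to 0.23; late minus early, Igfbp2 -0.34 to 0.48, Igfbp5 -0.61 to 0.52 and Igfbp7 -0.25 to 0.070; trend without Chir, Igfbp4 -0.063 to 1.20, Igfbp6 -0.075 to 0.64, Igfbp7 -0.50 to 0.030 and Igfbp5 -0.38 to 0.83. The cause was not tested.

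Calls of members moved under other settings too. Without MEF, limma also called the trends without BrdU of Igfbp2 (0.84 per 10 days, adjusted p = 0.0301), Igfbp3 (-0.73, 0.0474) and Igfbp5 (-1.21, 0.0319). Without day 22, Igfbp3 was called late minus early (limma, adjusted p = 0.0389). With no filter, limma no longer called Igfbp6 without Chir (adjusted p = 0.0560), Igf1r late minus early (0.0620) or Igfbp2 in CiPSC against MEF (0.0533), and with no intensity trend the same was true of these 3 (0.0537, 0.0783 and 0.0530). The slope of Igfbp2 without Chir also lost its call under both settings (limma, adjusted p = 0.0707 and 0.0820). With a mean of at least 10, limma called Igfbp4 (0.0476) and Igfbp5 (0.0478) without BrdU, Igfbp7 without Chir (0.0442) and Igfbp3 against day 40 (0.0476).

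With no day block (days not paired) limma called 6189 genes without BrdU, 4111 without Chir, 4660 between those courses and 1599 late minus early. Igfbp3 without BrdU (adjusted p = 0.118), Igfbp2 without Chir (0.152) and Igf1r late minus early (0.122) then lost their calls, and Igfbp4 without BrdU gained one (0.0492). With the added choice of leaving genes at 0 in every CiPSC library out of the fit, made after the data were seen, Igfbp3 against day 40 was called (limma, adjusted p = 0.0364).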

Other observations

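Stc1 and some of the 10 members had their largest step between days 22 and 30. Largest steps were not computed for the other genes of the axis. Stc1, a secreted inhibitor of PAPP-A, was 628, 678, 599 and 750 on days 6 to 22 and 22, 12 and 10 on days 30 to 40 without BrdU. Without Chir it was 170, 283, 302 and 223, then 24 on day 30. In the full course it was 624, 690, 549 and 298, then 15, 16 and 38. The drop was thus present in all 3 courses, and the difference between the courses without BrdU and with all chemicals was -0.04 ± 0.31 (limma, adjusted p = 0.934). Of the 10 members, 6 had their largest step between those days without BrdU, 7 without Chir and 4 in the full course. Of all genes, 32.7%, 46.4% and 27.8% did. The counts include Igf1 without BrdU and Igfbp1 in the full course, both chosen for their pattern. Igfbp1, at 0 on every day without Chir, is among the 10 there. Days 22 to 30 were also the longest gap between sampled days, so nothing is read from these counts. The labels do not say what was changed in the medium between days 22 and 30.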
